A study of Mus musculus with 26 samples.

Results

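YFP-negative non-parenchymal liver cells from mice fed DDC for 14 days were compared with the same sorted fraction after 3 days of the diet. The comparison uses 6 arrays, 3 for day 14 and 3 for day 3, of the 20 arrays with a scanner file; the series lists 26 samples. The arrays were chosen by their sample titles alone, and each measures 26647 genes that passed the filter on dim probes. All groups came from Foxl1-CRE; RosaYFP mice, the offspring of a Foxl1-CRE line and a Rosa26R YFP reporter line, aged 6 to 10 weeks. The groups used here are YFP-negative cells at day 14 (3 arrays) and at day 3 (3 arrays), YFP-negative cells at day 7 as the stage between (3 arrays), YFP-positive cells at day 14 (2 arrays) and day 3 (4 arrays), and total non-parenchymal cells of chow-fed mice at day 0 (2 arrays). Per the labels' protocols, both YFP fractions of DDC-fed mice were sorted from non-parenchymal cells negative for CD45, the surface protein of leukocytes, so the YFP-negative fraction is everything outside the CD45 gate in which the Foxl1-driven Cre had not switched on the reporter. The labels do not say whether a replicate is 1 mouse or a pool, so the spread between arrays may be technical. The p-values and standard errors rest on that spread within all 7 groups of the fit, and not on the 6 compared arrays alone.

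DDC is a porphyria-inducing compound that blocks bile ducts with pigment and gives mice a cholestatic injury, with inflammation around the portal tracts and a growth of small duct-like structures. The non-parenchymal cells of the liver include the endothelium of the sinusoids, the vitamin A-storing stellate cells, portal fibroblasts, the mesothelium of the capsule, bile duct cells and resident macrophages called Kupffer cells. During such an injury leukocytes enter around the ducts, stellate cells and portal fibroblasts can turn into matrix-producing myofibroblasts, and duct cells multiply.

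Levels are given as log2 of the scanner's processed signal minus the array's 75th percentile, and differences are day 14 minus day 3 on that log2 scale, with the standard error of limma's fit over all 20 arrays. A gene passed the test at a Benjamini-Hochberg adjusted p under 0.05 over all genes. No gene passed between day 14 and day 3: 0 of 26647 (0% called), with a smallest adjusted p of 0.638 by limma, so no gene below is said to have changed. At an unadjusted p under 0.05 there were 984 genes (3.69%), of which 412 stood higher (1.55%) and 572 lower (2.15%) at day 14. The 3 arrays of day 14 lay wholly above those of day 3 for 1666 genes (6.28%) and wholly below them for 1562 genes (5.88%) of the 26549 with a value on all 6 arrays. Fitted differences were above 0 for 45.8% of genes and below 0 for 54.2%, with a median of -0.06. These shares over all genes are the background for the counts of each gene list below. The number of arrays limits the precision. Between 82.3% and 87.3% of spots were well above background on the day 14 arrays, against 83.9% to 88.3% on the day 3 arrays.

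Arrays were run on shared slides, and slide 6 and slide 7 each hold 1 day 14 and 1 day 3 array, so 1 difference between 2 arrays can be taken within each. The medians of all genes were -0.29 within slide 6 and 0.18 within slide 7. The plot of list medians shows these values for each list, and 20 of the 30 lists had slide medians on opposite sides of 0. Among the other groups, array 1 of day 7 stood apart from arrays 3 and 4 of day 7 in leukocyte genes, as described below. The day 7 arrays enter the day 14 against day 3 difference only through the shared spread. Since these are bulk samples, fewer cells of a type and less RNA per cell cannot be told apart for any gene below.

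The class II antigen-presentation genes had the lowest median of the 30 gene lists, so promoters of the class II genes H2-Eb1 and H2-Aa are shown first, followed by that of Oas1a, an interferon-induced gene. They are the 300 bases from 250 before to 50 after the annotated start, from RefSeq on GRCm38.p6, read 5′ to 3′ on the gene's strand. H2-Eb1 lies on the plus strand at chr17:34305617-34305916, H2-Aa on the minus strand at chr17:34287774-34288073 and Oas1a on the minus strand at chr5:120907476-120907775. In the class II promoters, capitals mark AGCAAC, a core of the X box, and ATTGG, the core of the Y box, on either strand (CCAAT is ATTGG on the other strand). In Oas1a they mark the core of the interferon-stimulated response element, which is GAAA, any 2 bases and GAAA again, on either strand.
H2-Eb1: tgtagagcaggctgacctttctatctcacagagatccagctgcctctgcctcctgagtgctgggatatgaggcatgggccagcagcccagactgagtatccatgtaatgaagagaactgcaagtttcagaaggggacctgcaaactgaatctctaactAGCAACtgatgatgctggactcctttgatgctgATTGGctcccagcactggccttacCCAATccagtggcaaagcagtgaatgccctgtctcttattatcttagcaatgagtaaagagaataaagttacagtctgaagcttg
H2-Aa: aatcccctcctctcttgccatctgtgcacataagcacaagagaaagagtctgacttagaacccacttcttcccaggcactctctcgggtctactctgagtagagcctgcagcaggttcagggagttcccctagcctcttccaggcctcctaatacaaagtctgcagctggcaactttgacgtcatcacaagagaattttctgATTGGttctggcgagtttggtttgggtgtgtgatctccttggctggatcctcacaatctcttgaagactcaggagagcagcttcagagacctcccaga
Oas1a: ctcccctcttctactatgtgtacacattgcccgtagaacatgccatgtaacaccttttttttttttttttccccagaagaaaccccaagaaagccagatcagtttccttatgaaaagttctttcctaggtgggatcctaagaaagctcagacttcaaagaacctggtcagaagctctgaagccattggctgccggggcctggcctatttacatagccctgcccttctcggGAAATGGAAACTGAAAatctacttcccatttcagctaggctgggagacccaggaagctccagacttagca
The H2-Eb1 window held 1 AGCAAC and 2 ATTGG matches, the H2-Aa window held 1 ATTGG and no AGCAAC, and none of these overlapped another. The Oas1a window held 2 matches to the interferon-stimulated response element core, which overlap. ATTGG was found in the windows of 6 of the 6 measured class II genes with a promoter in the table, against 41.1% of all 27025 genes with one, and both motifs in 3 of the 6, against 6.68%. The interferon-stimulated response element core was found for 16 of 29 interferon-induced genes with a promoter in the table, against 3.99% of all genes. A match describes letters in a window and not a used site, and these shares do not bear on day 14 against day 3. The motifs were chosen after the expression values were known.

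Leukocyte genes as a group ran lower at day 14. Of the 73 genes measured in the lists for Kupffer cells and macrophages, T and natural killer cells, B and plasma cells, neutrophils and class II antigen presentation, 69 had a fitted difference below 0, and 42 of the 72 with all 6 values had every day 14 array below every day 3 array, where 5.88% of all genes did. None passed the adjusted threshold (smallest adjusted p 0.999 by limma), and 22 had an unadjusted p under 0.05 in the lower direction, where 2.15% of all genes did. The median difference of the 73 genes was -2.66, and it was -3.45 within slide 6 and -2.08 within slide 7. The mean level of these genes was -2.62, -3.67 and -1.61 on the day 14 arrays, against -0.73, -0.60 and 0.63 on the day 3 arrays, so the groups did not overlap. Leaving out each of the 6 arrays in turn left 63 to 71 of the 73 genes below 0 and medians between -2.99 and -2.11, while the number with an unadjusted p under 0.05 ran between 10 and 26. That number was 10 both without array 2 of day 14 and without array 4 of day 3. It was 45 with only the 6 arrays of both days in the fit, where again none passed the adjusted threshold.

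Ptprc, which encodes the gate's own marker CD45, is 1 of these genes. Ptprc was at -0.90, -1.73 and 0.75 on the day 14 arrays, against 1.69, 1.501 and 3.37 on the day 3 arrays. The groups did not overlap, but the fitted difference of -2.81 ± 2.32 (n = 3 each, SE from the spread within all 7 groups) did not pass the test (adjusted p = 0.999 by limma). Its probe was well above background on all 6 arrays, although the protocol selects cells negative for CD45. The part that CD45-positive cells in the sorted fraction had in these values was not tested.

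The 9 class II genes had a median difference of -3.27, all 9 below 0 and 7 without overlap of the arrays. H2-Eb1, a beta chain of the class II molecule, was at -4.51, -5.37 and -1.16 at day 14, against 0.70, -0.33 and 3.58 at day 3 (difference -4.99 ± 2.15, adjusted p = 0.999). H2-Aa, an alpha chain, was at 1.23, -2.43 and 1.02 at day 14, against 3.68, 3.22 and 4.03 at day 3 (-3.71 ± 1.53). Ciita, the master co-activator of class II transcription, was at -4.70, -6.48 and -4.12 at day 14, against -2.22, -2.83 and -1.29 at day 3 (-2.99 ± 1.18). For all 3 genes every day 14 array was below every day 3 array. Cd74, the invariant chain that escorts class II molecules, differed by -3.10 ± 1.20, H2-Ab1 by -3.70 ± 1.69 and H2-DMb1 by -2.64 ± 1.15, all without overlap. H2-Oa (-3.48 ± 1.22) and H2-Ob (-0.96 ± 1.11), chains of a modulator of peptide loading, overlapped between the groups. The list was lower within both slides, with medians of -4.74 on slide 6 and -2.15 on slide 7.

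Kupffer cell and macrophage genes had a median of -2.79, with 19 of 20 below 0 and 17 of 20 without overlap. Clec4f, a lectin receptor restricted to Kupffer cells in mice, was at 0.36, -1.73 and 0.68 at day 14, against 3.34, 4.04 and 3.29 at day 3 (-3.79 ± 1.38, unadjusted p = 0.015, adjusted p = 0.999). Timd4, a receptor for dying cells on resident Kupffer cells, was at -3.91, -5.51 and -2.65 at day 14, against 0.66, 0.72 and 0.89 at day 3 (-4.78 ± 1.60). Cd68, a lysosomal glycoprotein of macrophages, was at -2.36, -3.86 and -0.97 at day 14, against 0.91, 1.16 and 2.09 at day 3 (-3.78 ± 1.22). In each case the 3 day 3 arrays lay close together and the day 14 arrays below them, array 2 of day 14 lowest. Adgre1, an adhesion-class receptor of mouse macrophages, differed by -3.33 ± 2.11, Csf1r, the receptor for macrophage colony-stimulating factor, by -3.63 ± 1.49, and the scavenger receptor Marco by -2.05 ± 1.25, all without overlap. The Kupffer cell genes Vsig4 (-3.18 ± 2.09) and Cd5l (-2.12 ± 1.11) were also lower on every day 14 array.

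T and natural killer cell genes had a median of -2.81, with 17 of 17 below 0 and 10 without overlap. Prf1, the pore-forming perforin of cytotoxic lymphocytes, was at -7.19, -7.86 and -6.65 at day 14, against -2.92, -3.53 and -4.57 at day 3. Its difference of -3.56 ± 0.73 had an unadjusted p of 0.00019 and an adjusted p of 0.999, and the probe was well above background on 2 of the 3 day 14 arrays. Gzmb, which encodes the granzyme delivered through that pore, was at -8.87, -9.79 and -5.39 at day 14, against -3.35, -1.59 and -1.07 at day 3 (-6.01 ± 1.85), with 1 day 14 array well above background. Cd8a, Cd2 and Cd3e, surface proteins of T cells, differed by -4.05 ± 1.29, -4.01 ± 1.26 and -3.29 ± 1.24, with no overlap of the arrays. 7 of the 17 had an unadjusted p under 0.05, all of them lower.

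B and plasma cell genes had a median of -1.57 (10 of 12 below 0, 5 without overlap). The B cell receptor component Cd79b differed by -3.42 ± 1.31, the B cell surface protein Ms4a1 by -2.57 ± 0.98 and the plasma cell chaperone Mzb1 by -1.92 ± 0.97, each without overlap, while the transcription factor Pax5 (-1.21 ± 0.62) overlapped. Neutrophil genes had a median of -0.91 (14 of 15 below 0), which was -0.41 without array 4 of day 3 and -1.86 without array 1 of day 3, but only 3 did not overlap, among them the peptide receptor Fpr1 (-3.78 ± 1.31) and the antimicrobial peptide Camp (-6.65 ± 2.75). Camp was well above background on 1 of the 3 day 14 arrays and all 3 day 3 arrays. The calprotectin subunit S100a8 was at 0.68, 0.01 and 0.75 at day 14, against 1.04, -0.67 and 3.17 at day 3, with groups that overlapped (-0.70 ± 2.61). Cd177 had no value on 1 day 14 array, so the fit used the other arrays for it (-2.02 ± 1.33), and Ngp overlapped (-3.82 ± 2.99).

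**Figure D1:**
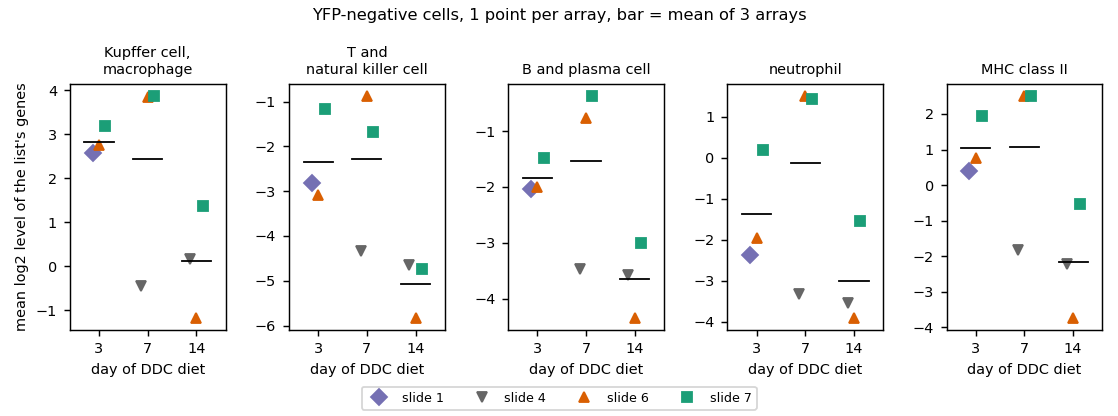
Mean log2 level of the genes of 5 lists on each YFP-negative array (vertical axis, log2 relative to the array's 75th percentile) at days 3, 7 and 14 of the diet (horizontal axis); symbols and colours give the slide, and bars the mean of 3 arrays. The Kupffer cell and macrophage mean lay between -1.18 and 1.36 on the day 14 arrays, below 2.57 to 3.18 on the day 3 arrays, and at day 7 array 1 sat at -0.44, far below the other day 7 arrays.

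Day 7 did not form a single group in these genes. The mean level of Kupffer cell and macrophage genes was 2.57, 2.75 and 3.18 on the day 3 arrays, -0.44, 3.84 and 3.88 on the day 7 arrays, and 0.18, -1.18 and 1.36 on the day 14 arrays, and it was 1.80 and -0.78 in total non-parenchymal cells at day 0. Array 1 of day 7, which shares slide 4 with array 1 of day 14, was at the level of the day 14 arrays, and arrays 3 and 4 of day 7 were above all day 3 arrays. Ptprc followed the same order, at -0.78, 4.38 and 4.38 on the day 7 arrays. Array 1 of day 14 has no day 3 partner on its slide, so for it slide and day cannot be told apart.

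Interferon-induced genes, which many cell types switch on in answer to interferons, had a median of -0.59 (34 of 40 below 0, 10 without overlap, 5 with an unadjusted p under 0.05). Over all genes 54.2% were below 0, 5.88% stood lower without overlap and 2.15% were lower at that p. Oas1a, a sensor of double-stranded RNA with several close paralogs, was at -1.58, -1.83 and -2.34 at day 14, against -0.32, -1.06 and 1.47 at day 3 (-1.95 ± 0.62). Oasl2 was at 0.51, 0.27 and 0.68 at day 14, against 1.39, 1.57 and 1.49 at day 3 (-0.997 ± 0.33). Zbp1, a sensor of nucleic acids that can start necroptosis, differed by -1.95 ± 0.79 and Ly6e, a membrane protein that hinders virus entry, by -0.94 ± 0.43. These 4 genes did not overlap, and none passed the test (adjusted p = 0.999). Ifit1, the first gene of the list, overlapped (-1.07 ± 0.89). Relative to the median of all genes the list stood at -0.53, but at 0.04 after normexp background correction, so its direction depends on that choice.

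The genes with the widest differences were named by a rule. Of genes without overlap whose unadjusted p was under 0.01 and whose probe stood clear of background on all 3 arrays of the brighter day, 49 stood higher and 58 lower at day 14. Genes known only by a clone or predicted identifier were left out of both counts. The 10 largest of the lower genes included Epb41l3, a membrane skeleton protein, at -4.82, -8.03 and -7.83 at day 14, against -1.45, -0.16 and -0.17 at day 3 (-6.30 ± 1.48). Mcoln2, an endolysosomal cation channel, was at -9.10, -10.03 and -9.15 at day 14, not well above background on any day 14 array, against -1.92, -3.44 and -2.37 at day 3. Mcoln2 was therefore at least 45.4-fold lower at day 14, the day 3 mean being set against the higher of the lowest well-above-background signal and the probe's own signal on each day 14 array. By the same bound the chemokine gene Ccl12 was at least 20.2-fold lower and Nxpe5 at least 17.8-fold lower. These bounds hold for the scanner's processed signal only: after normexp background correction the fitted log2 differences were -3.18 for Mcoln2, -2.82 for Ccl12 and -2.39 for Nxpe5, below the bounds in size.

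Laptm5, a lysosomal protein of blood cells, differed by -5.13 ± 1.66, Scimp, an adaptor of antigen-presenting cells, by -5.68 ± 1.92, and the natural killer cell receptor gene Klrb1b by -5.52 ± 1.84. Kcna2, a voltage-gated potassium channel, was at -6.39, -7.44 and -6.17 at day 14, against -2.65, -0.05 and -1.38 at day 3 (-5.31 ± 1.32). Mup10, a major urinary protein secreted by hepatocytes, differed by -5.75 ± 1.505, but its family has near-identical copies, so the probe may not measure Mup10 alone. The adjusted p of all 10 genes was 0.999 by limma. Each was lower within slide 6 and within slide 7.

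**Figure D2:**
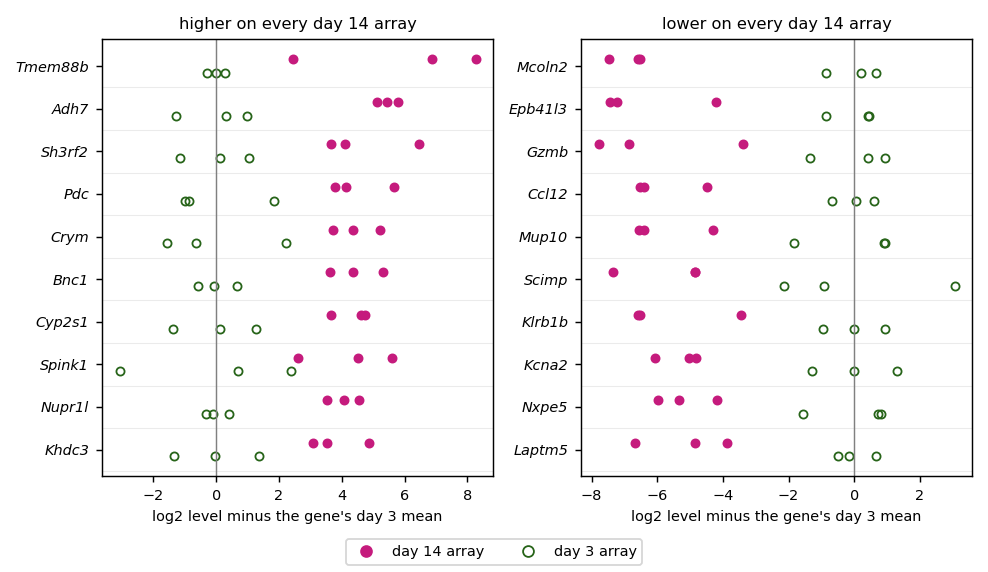
Log2 level of each array minus the gene's own mean over the 3 day 3 arrays (horizontal axis) for the 10 named genes with the largest differences in each direction; filled points are day 14 arrays and open points day 3 arrays. Adh7 sits more than 5 log2 units to the right on every day 14 array and Mcoln2 more than 6 to the left, and in no gene shown do the groups overlap.

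The 10 largest of the higher genes had mostly dim signals at day 3, and their sizes depended on the background correction. After normexp their log2 differences lay between -0.39 and 2.94, those of Adh7, Tmem88b, Sh3rf2, Nupr1l and Khdc3 being 0.82, 0.60, 0.34, 0.53 and 0.59. Adh7, a class IV alcohol dehydrogenase that oxidises retinol, was at -3.00, -3.36 and -3.68 at day 14, against -10.09, -8.49 and -7.81 at day 3 (5.45 ± 1.45, unadjusted p = 0.0018, adjusted p = 0.999). The day 14 arrays lay within 1 log2 unit of each other, and 1 of the 3 day 3 arrays was well above background. Tmem88b, a membrane protein, was at -7.80, -3.37 and -1.99 at day 14 and not well above background on any day 3 array, which makes it at least 12.3-fold higher on the scanner's processed signal, a bound that its normexp value does not reach. Bnc1, the zinc finger protein basonuclin, was at -4.24, -5.92 and -5.18 at day 14 and at least 7.45-fold higher by the same bound; its fitted difference of 4.42 ± 1.07 turned to -0.39 after normexp background correction, where the median of all genes was -0.59.

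Cyp2s1, a cytochrome P450 of extrahepatic epithelia, was well above background on all 6 arrays, at -1.58, -2.70 and -1.73 at day 14, against -6.22, -5.08 and -7.71 at day 3 (4.33 ± 1.08). Spink1, a secreted trypsin inhibitor, was at 0.33, 1.41 and -1.58 at day 14, against -3.49, -7.25 and -1.79 at day 3 (4.23 ± 1.29). The Spink1 difference was 0.21 within slide 7 and 8.66 within slide 6. Crym (4.43 ± 1.35), a thyroid hormone-binding protein, Sh3rf2 (4.73 ± 1.56), Khdc3 (3.82 ± 1.20) and Nupr1l (4.05 ± 1.24) also stood higher without overlap, although the other probe for Nupr1l ran the opposite way. Pdc, phosducin of photoreceptors, differed by 4.52 ± 1.27, and by -0.28 after normexp background correction.

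Stellate cell and mesothelial genes ran higher at day 14 on balance. Of the 31 genes measured in the quiescent stellate and the portal fibroblast and mesothelium lists, 22 had a fitted difference above 0 and 12 stood higher without overlap, where 6.28% of all genes did. None stood lower without overlap, and 4 had an unadjusted p under 0.05. The median difference was 0.80, with -0.04 within slide 6 and 1.02 within slide 7. The mean level of these genes was 1.02, 0.39 and 0.83 at day 14, against -0.79, 0.59 and -0.27 at day 3, and array 3 of day 3 was above array 2 of day 14. Leaving out each array in turn gave medians between 0.69 and 1.05 and 1 to 6 genes with an unadjusted p under 0.05, the count of 1 being that without array 1 of day 14. The median was 0.36 with slide as a fixed block and 0.435 with the replicate block.

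Quiescent stellate cell genes had a median of 0.85 (12 of 16 above 0, 7 without overlap). Lrat, the enzyme that esterifies retinol for storage and the marker that defines stellate cells in the liver, was at 2.59, 1.57 and 1.62 at day 14, against -0.36, 0.41 and -0.08 at day 3. The groups were 1.16 log2 units apart at their nearest arrays, and the difference of 1.94 ± 0.71 did not pass the test (adjusted p = 0.999). Lrat was at -3.48 and -1.31 in total non-parenchymal cells at day 0 and at 1.44, 0.56 and 0.93 in YFP-negative cells at day 7. Cygb, the globin of stellate cells, differed by 1.70 ± 1.32, Lhx2, a homeobox factor of stellate cells, by 1.80 ± 1.26, the proteoglycan Dcn by 1.21 ± 1.55, the collectin Colec11 by 1.20 ± 1.29 and Ecm1 by 0.89 ± 0.81, all without overlap. Reln (1.65 ± 1.13), Hgf (0.43 ± 0.58) and Ngfr (0.84 ± 1.05) overlapped, and the intermediate filament genes Des (-0.40 ± 0.98) and Gfap (-0.54 ± 0.59) overlapped with differences below 0.

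**Figure D3:**
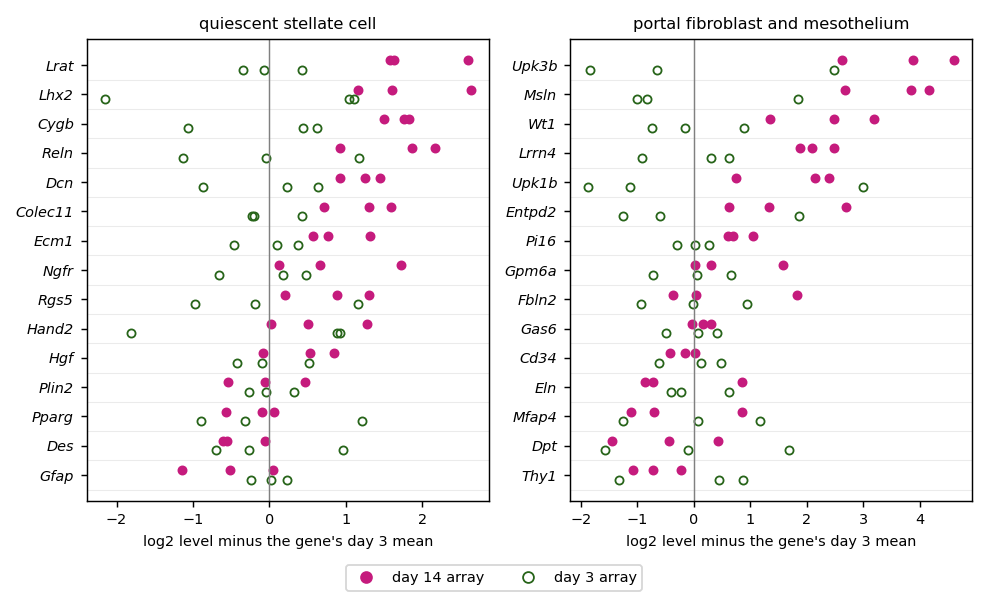
Log2 level of each array minus the gene's own mean over the 3 day 3 arrays (horizontal axis) for 15 of the 16 measured quiescent stellate cell genes and all 15 portal fibroblast and mesothelium genes, ordered by fitted difference; filled points are day 14 arrays and open points day 3 arrays. Lrat lies to the right of 0 on every day 14 array, while Des and Gfap overlap between the days.

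In the portal fibroblast and mesothelium list (median 0.64, -0.53 within slide 6 and 2.19 within slide 7, 10 of 15 above 0, 5 without overlap) the mesothelial members stood highest. Msln, the surface protein mesothelin, was at 1.41, 0.25 and 1.73 at day 14, against -3.27, -0.59 and -3.45 at day 3 (3.56 ± 1.15). Upk3b, an uroplakin of mesothelium, was at -2.42, -3.15 and -4.41 at day 14, against -8.87, -4.55 and -7.68 at day 3 (3.71 ± 1.36, and 0.57 after normexp). Array 3 of day 3 lay nearest to the day 14 arrays for both genes. Wt1, a transcription factor of mesothelium, and Lrrn4, a membrane protein of mesothelium, differed by 2.34 ± 1.80 and 2.15 ± 1.74 without overlap, and Pi16, a marker of adventitial fibroblasts, by 0.79 ± 0.44. Upk1b (1.77 ± 1.30), Entpd2, the ectonucleotidase of portal fibroblasts (1.55 ± 0.96), and Thy1 (-0.68 ± 1.18) overlapped.

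Myofibroblast and matrix genes showed no common direction. The activated stellate cell and myofibroblast list had a median of 0.02, with 8 of 16 genes above 0. Of the 16, 3 stood lower without overlap, where 5.88% of all genes did. Acta2, the smooth muscle actin of myofibroblasts, was at 3.97, 4.06 and 4.24 at day 14, against 4.38, 4.66 and 4.57 at day 3 (-0.45 ± 0.31), lower on every day 14 array; with the mean of all its probes the difference was -1.70. The contractile protein genes Cnn1 (-1.29 ± 0.64) and Tagln (-1.07 ± 0.70) were lower without overlap as well, and the matrix protein gene Thbs2 overlapped (1.74 ± 1.08). Collagen and matrix genes had a median of 0.17 (18 of 30 above 0, 1 without overlap), and Col1a1, the main fibrillar collagen chain, was at 2.76, 1.45 and 2.41 at day 14, against 1.38, 3.41 and 2.18 at day 3 (-0.12 ± 1.67). The laminin chain genes Lamb1 (1.02 ± 0.69) and Lama2 (0.77 ± 0.63) and Thbs1 (-1.18 ± 0.98) overlapped. Both lists had medians of opposite sign on the slides, -1.65 and -1.12 on slide 6 and 0.37 and 0.53 on slide 7.

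Matrix proteases and inhibitors had a median of 0.07 (14 of 23 above 0), and 3 stood lower without overlap, where 5.88% of all genes did. Mmp12, the elastase of macrophages, was at -4.55, -7.87 and -4.97 at day 14, against -1.097, -0.87 and -0.34 at day 3 (-5.03 ± 1.90). It was at -9.60 and -9.61 in total non-parenchymal cells at day 0. Mmp13, a collagenase, differed by -4.37 ± 2.14 without overlap, while Mmp7 (2.76 ± 1.58), Adamts5 (1.28 ± 0.86) and Mmp2 (1.09 ± 1.29) overlapped. Transforming and platelet growth factor genes had a median of 0.42 (17 of 24 above 0, 3 higher without overlap), among them the matricellular gene Ccn2 (1.17 ± 0.66) and the inhibin subunit Inhbb (0.81 ± 0.50); Ltbp2 (1.88 ± 0.93), Itgb6 (1.81 ± 1.25) and Tgfb1 (-0.37 ± 0.81) overlapped.

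Complement and coagulation genes had a median of 0.62, with 15 of 18 above 0, 3 without overlap and 3 with an unadjusted p under 0.05. Their median was -0.13 within slide 6 and 0.70 within slide 7. Over all genes 45.8% were above 0, 6.28% stood higher without overlap and 1.55% were higher at that p. C4b, a complement component, was at 0.41, -0.16 and -0.45 at day 14, against -1.82, -0.78 and -1.48 at day 3 (1.30 ± 0.45). C7, of the membrane attack complex, was at -3.06, -3.84 and -1.74 at day 14, against -9.47, -2.75 and -10.34 at day 3. The groups overlapped because array 3 of day 3 was above arrays 1 and 2 of day 14 (4.64 ± 1.58). Over the alternative fits the C7 difference ran from 0.39 to 7.03. The protease gene C1s1 (1.09 ± 0.46), C3 (0.80 ± 0.61) and the clotting factor gene F5 (-2.11 ± 1.16) also overlapped.

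Chemokine and cytokine genes had a median of 0.24, with -0.27 within slide 6 and 0.31 within slide 7. Of the 30 genes, 7 stood lower and 3 higher without overlap, where 5.88% and 6.28% of all genes did. Cxcl12, a chemokine of stromal cells, was at 4.46, 4.00 and 4.36 at day 14, against 2.40, 3.62 and 3.24 at day 3 (1.19 ± 0.55). Il18, a cytokine of the inflammasome pathway, was at -2.80, -4.90 and -3.43 at day 14, against -1.21, -2.24 and -1.26 at day 3 (-2.14 ± 0.79). Ccl7, a monocyte chemokine, stood lower without overlap (-2.57 ± 1.22), and Ccl2, another, overlapped (0.36 ± 0.70).

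**Figure D4:**
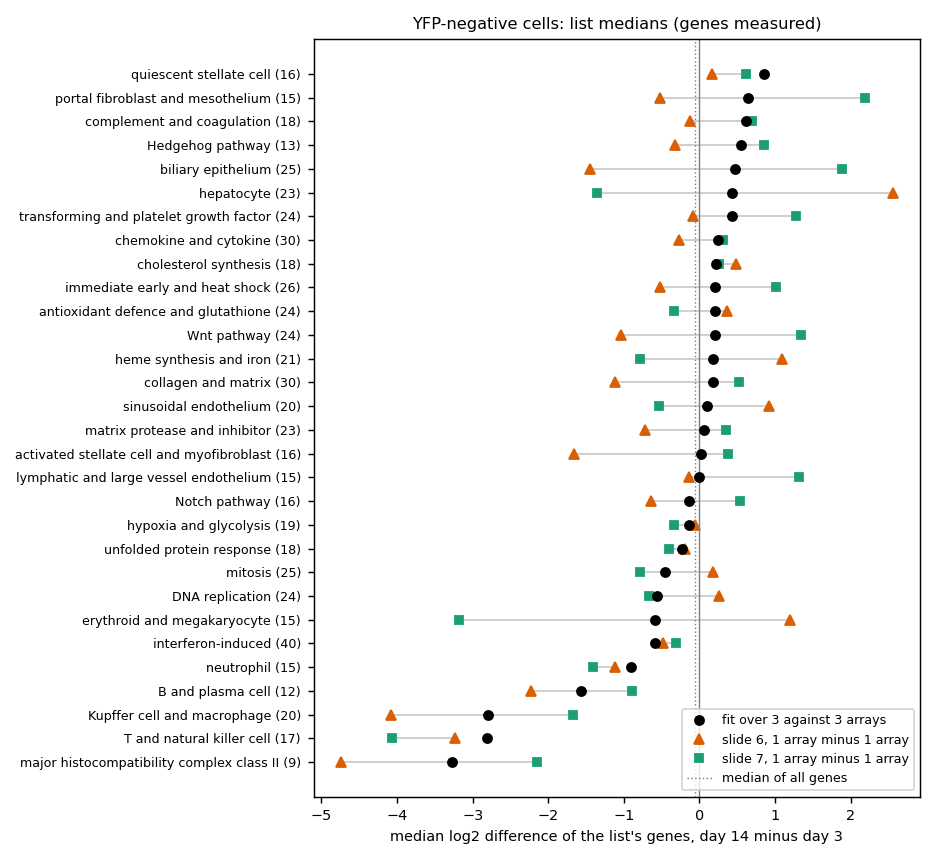
Median log2 difference, day 14 minus day 3, of the genes of each of 30 lists (horizontal axis), with the number of genes measured after each name; black points are the fit over 3 against 3 arrays, triangles and squares the difference of 1 array minus 1 array within slides 6 and 7, and the dotted line the median of all genes. The 5 leukocyte and class II lists lie left of 0 in all 3 values, whereas the biliary, hepatocyte and erythroid lists fall on opposite sides on the slides.

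The epithelial and endothelial lists showed no shared difference. Biliary genes had a median of 0.47 (17 of 25 above 0, 1 lower without overlap), with -1.45 within slide 6, 1.88 within slide 7 and -0.255 without array 3 of day 14. Krt19, the keratin that marks bile duct cells, was at -1.64, -0.84 and 0.89 at day 14, against -3.23, 1.46 and -1.87 at day 3 (0.68 ± 1.35), so 1 day 3 array was above all day 14 arrays. Krt7 (2.19 ± 1.43), the duct factor Sox9 (1.84 ± 1.22), Cldn4 (1.71 ± 1.30) and Ggt1 (-0.95 ± 0.76) overlapped as well. Hepatocyte genes, which come from parenchymal cells, had a median of 0.44 (15 of 23 above 0, none without overlap), 2.56 within slide 6 and -1.35 within slide 7. Alb, the albumin gene, was at 4.62, 4.61 and 3.29 at day 14, against 4.25, 4.49 and 5.20 at day 3 (-0.47 ± 0.56), and Mup1 (-3.41 ± 1.47), Tat (1.74 ± 0.78), Ahsg (1.31 ± 0.68) and Ass1 (1.91 ± 1.07) overlapped.

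Sinusoidal endothelial genes had a median of 0.10, 0.91 within slide 6 and -0.54 within slide 7, with 12 of 20 above 0 and none without overlap. The scavenger receptor gene Stab2 was at 4.13, 4.08 and 2.31 at day 14, against 4.30, 3.24 and 4.47 at day 3 (-0.50 ± 0.68), array 3 of day 14 being lowest. Array 3 of day 14 was also lowest for Lyve1 (-0.61 ± 0.87) and Dnase1l3 (-0.47 ± 0.84), while Emcn differed by 0.65 ± 0.80. Genes of lymphatic and large vessels had a median of -0.01 (7 of 15 above 0). Of the 15, 2 stood higher and 2 lower without overlap, where 6.28% and 5.88% of all genes did. The lymphatic chemokine Ccl21a, which has near-identical copies, stood lower (-3.01 ± 1.25), and the podoplanin gene Pdpn (1.43 ± 1.23) and the selectin gene Selp (1.43 ± 1.07) stood higher without overlap. Wnt9b overlapped (0.76 ± 0.88).

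Erythroid and megakaryocyte genes had a median of -0.59 (11 of 15 below 0), 1.20 within slide 6, -3.19 within slide 7 and 0.41 without array 3 of day 14. The globin gene Hbb-bt was at 6.07, 6.25 and 1.01 at day 14, against 6.10, 6.39 and 6.11 at day 3 (-1.76 ± 1.80), and Hba-a1 had the same single low array, at 1.69 on array 3 of day 14 (-1.52 ± 1.505). Itga2b, an integrin of platelets, stood higher without overlap (1.06 ± 0.62) and the platelet chemokine Pf4 lower (-1.46 ± 0.94), and Epb42 overlapped (1.095 ± 0.96).

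Cell division genes were lower on 2 of the 3 day 14 arrays. Mitosis genes had a median of -0.46 (22 of 25 below 0, 1 without overlap), and DNA replication genes one of -0.57 (21 of 24 below 0, 1 without overlap). Over all genes 54.2% were below 0 and 5.88% stood lower without overlap. The mean level of the mitosis genes was -1.64, -0.58 and -2.18 at day 14, against -1.21, -0.78 and -1.02 at day 3, so array 2 of day 14 was above all day 3 arrays. Kif23, a motor of the dividing cell's midbody, did not overlap (-1.78 ± 0.80). Mki67, the proliferation antigen, was at 0.70, 3.07 and 0.97 at day 14, against 1.28, 2.08 and 1.76 at day 3 (-0.12 ± 0.60). Plk1 (-0.65 ± 0.50), Tpx2 (-1.04 ± 0.72), Cenpe (-0.80 ± 0.63), Tk1 (-1.52 ± 0.74), Cdt1 (-1.01 ± 0.59), Ccne1 (-1.08 ± 0.61) and Mcm2 (-0.85 ± 0.68) overlapped. Of the 49 genes in both lists 43 were below 0, and without array 3 of day 14 this count was 31. Their median was -0.46, but 0.25 within slide 6 and -0.78 within slide 7. Without array 3 of day 14 it was -0.149 with no gene at an unadjusted p under 0.05, and without array 2 of day 14 it was -0.94 with 11. After normexp it was -0.597, beside a median of all genes of -0.592. Of the 49 genes 25 were then below the median of all genes, against 41 in the main fit.

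Stress and metabolic lists had medians within 0.25 of 0. Some of their genes did not overlap between the days, as was so for 6.28% (higher) and 5.88% (lower) of all genes. Nqo1, a quinone reductase and a target of the antioxidant factor Nrf2, was at 3.07, 3.33 and 4.27 at day 14, against 2.50, 2.05 and 1.51 at day 3 (1.54 ± 0.53). The antioxidant and glutathione list had a median of 0.21 (16 of 24 above 0, 3 higher and 3 lower without overlap). Metallothionein Mt1 stood higher without overlap (0.88 ± 0.42), and the glutathione transferase genes Gstm1 (0.62 ± 0.47) and Gstm2 (0.57 ± 0.44) overlapped. Trib3, a pseudokinase induced when proteins misfold, was at -1.47, -1.37 and -1.98 at day 14, against -4.49, -3.57 and -3.47 at day 3 (2.24 ± 0.60), although the other probe for Trib3 ran the opposite way. Herpud1, of the degradation pathway of the endoplasmic reticulum, was at 3.29, 3.70 and 3.203 at day 14, against 2.66, 2.76 and 2.48 at day 3 (0.76 ± 0.28). Of the 18 unfolded protein response genes, only these 2 stood higher without overlap; 5 stood lower, the list's median was -0.23, and the chaperone gene Hspa5 overlapped (-0.28 ± 0.41), as did Manf (-0.50 ± 0.34), while Edem1 was lower without overlap (-0.89 ± 0.62).

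Bnip3, a mitophagy receptor induced by low oxygen, was at 0.07, 0.45 and -0.30 at day 14, against -0.89, -2.99 and -1.44 at day 3 (1.85 ± 0.53). The hypoxia and glycolysis list as a whole had a median of -0.13 (7 of 19 above 0), with the peptide hormone gene Adm higher (1.29 ± 0.80) and the glycolytic genes Eno1 (-1.30 ± 0.60) and Hk2 (-2.05 ± 1.74) lower without overlap; Ndrg1 overlapped (0.75 ± 0.43). Heme synthesis and iron genes had a median of 0.18 (15 of 21 above 0). Of them, 3 stood higher and 2 lower without overlap, where 6.28% and 5.88% of all genes did. Alas1, the rate-limiting enzyme of heme synthesis in liver, was at -1.05, -0.57 and -1.15 at day 14, against -1.47, -2.01 and -1.34 at day 3 (0.68 ± 0.36). The porphyrin exporter gene Abcg2 (0.90 ± 0.54) and Blvra (-0.96 ± 0.66) overlapped. Cholesterol synthesis genes had a median of 0.22 (14 of 18 above 0), with Insig1 higher without overlap (1.19 ± 0.66), and Fdps (0.97 ± 0.68) and Cyp51 (0.72 ± 0.68) overlapping. Immediate early and heat shock genes had a median of 0.21 (19 of 26 above 0, 3 without overlap), including Socs3 (1.08 ± 0.54) and Jun (0.37 ± 0.36), with overlap for Fos (0.86 ± 0.61) and Ier3 (1.12 ± 0.54).

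Among the signalling lists, Wnt genes had a median of 0.20 (13 of 24 above 0, 4 higher and 2 lower without overlap), with -1.03 within slide 6, 1.34 within slide 7 and -0.65 after normexp. Without overlap, 6.28% of all genes stood higher and 5.88% lower. The Notch and Hedgehog lists each held 1 gene higher without overlap, of 16 and 13 measured. The median of all genes was itself -0.59 after normexp. Relative to the median of all genes the Wnt list stood at 0.266, and at -0.055 after normexp. The ligand gene Wnt10a was at -5.59, -5.12 and -1.81 at day 14, against -7.00, -7.85 and -7.69 at day 3 (3.34 ± 1.09, and 0.25 after normexp). Wif1, a secreted Wnt inhibitor, was not well above background on any day 14 array and was at least 3.10-fold lower, and the target gene Axin2 stood higher without overlap (1.01 ± 0.78). Rspo1 (2.14 ± 1.02) and the receptor gene Fzd1 (1.59 ± 0.89) overlapped. Notch genes had a median of -0.13 (6 of 16 above 0), with only Notch4, the endothelial receptor, higher without overlap (0.95 ± 0.74), and overlap for Notch1 (-0.10 ± 0.60), Notch3 (-1.18 ± 1.01), Jag2 (-0.73 ± 0.79) and Hey2 (-0.58 ± 1.06). Hedgehog genes had a median of 0.55 (10 of 13 above 0), -0.32 within slide 6, 0.85 within slide 7 and -0.22 after normexp, with Gas1, a co-receptor, higher without overlap (1.92 ± 1.12), and Cdon (1.01 ± 0.68), the receptor gene Ptch1 (0.55 ± 0.45), its target Gli1 (-1.11 ± 0.58) and Shh (0.11 ± 2.22) overlapping. Relative to the median of all genes the Hedgehog list stood at 0.61, at 0.37 after normexp and at 0.06 with slide as a fixed block. Shh was well above background on 1 day 14 and 1 day 3 array.

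To see whether the difference between the days was particular to the YFP-negative fraction, the same difference in YFP-positive cells was subtracted from it in the fit. No gene passed the test of that difference (0 of 26647, 0% called), and 760 (2.85%) had an unadjusted p under 0.05. In YFP-positive cells 7 genes passed between day 14 and day 3 (0.0263%). Of the 73 leukocyte and class II genes, 65 were also below 0 in YFP-positive cells, with a median of -1.38, and 1 of the 73 had an unadjusted p under 0.05 for the difference between the fractions. In that fraction the mean level of these genes was -3.38 and -2.13 on the day 14 arrays, against 0.92, -1.12, -0.33 and -3.47 on the day 3 arrays, so the groups overlapped through 1 low day 3 array. The 31 genes of the quiescent stellate and the portal fibroblast and mesothelium lists had a median of -0.07 in YFP-positive cells. Of these, 3 had an unadjusted p under 0.05 for the difference between the fractions, where 2.85% of all genes did.

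The genes with the smallest unadjusted p for the difference between the fractions did not pass either (adjusted p = 1 for all by limma). That difference was above 0 for Gdf9 (7.10 ± 1.51), Dzank1 (6.76 ± 1.54), Ripor2 (5.03 ± 1.18), Plcb1 (2.96 ± 0.69) and Ufsp1 (2.87 ± 0.68). It was below 0 for Il11 (-4.30 ± 0.90), a cytokine of stromal cells, Hdx (-8.56 ± 1.995), Nop16 (-2.53 ± 0.63), St8sia6 (-4.95 ± 1.25) and Hpcal4 (-4.53 ± 1.20). Its sign does not give the direction within YFP-negative cells. There Ripor2 and Plcb1 differed by -1.89 and -0.98 between the days. In YFP-positive cells they differed by -6.92 and -3.94, and both passed the test (adjusted p = 0.009 by limma). Hpcal4 differed by 0.25 in YFP-negative and by 4.78 in YFP-positive cells. Within the YFP-negative cells alone Il11 was at -6.47, -5.46 and -5.92 at day 14, against -4.71, -3.60 and -4.49 at day 3 (-1.68 ± 0.62). Hpcal4 was not well above background on any of the 6 YFP-negative arrays.

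The authors' deposited table compares each day with day 0 and does not hold day 14 against day 3 itself. Both of its columns share the day 0 samples, which are total non-parenchymal cells of chow-fed mice. Which samples entered its fold changes is not given in the sources used here. They may include samples without a scanner file, which the levels above do not. The day 3 and day 14 cells were sorted as CD45-negative and YFP-negative, so sort and diet cannot be told apart in these fold changes. In the authors' deposited table, a fold change below 0 is a fold decrease and the false discovery rate is in percent. For Lrat the authors' deposited table gives a fold change of 15.1 at day 14 (false discovery rate 3.59%) and 3.17 at day 3 (18.02%). For Timd4 the authors' deposited table gives -4.20 at day 14 (18.2%) and 4.87 at day 3 (4.72%), and for Clec4f -3.45 at day 14 (19.6%) and 3.55 at day 3 (7.82%). For Msln the authors' deposited table gives 3.33 at day 14 (7.42%) and -3.68 at day 3 (16.3%). For Mmp12 the authors' deposited table gives 16.6 at day 14 (2.85%) and 308 at day 3 (0%).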

How the data were processed

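Cells were profiled with 1-colour Agilent mouse arrays from cDNA amplified from total RNA. The authors deposited scanner files of intensity (the processed signal is background-subtracted within the array, per the file headers: Feature Extraction 10.5.1.1, probe positions on mm9; the submitters' processing notes name version 9.53), and a table of their own comparisons with day 0, used as deposited: a signed fold change score (a decrease written as minus the inverse fold) and a false discovery rate in percent, made by steps not given in the sources used here. The log2 values were computed here from the deposited intensity: log2 of the processed signal minus the array's 75th percentile, control and outlier spots left out. Probes well above background on at least 2 of 20 arrays were kept, 1 probe per gene (highest mean signal), leaving 26647 genes. Names were updated through RefSeq (17064 by accession, 1699 by symbol, 645 by synonym, 7239 not matched).

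limma 3.58.1 (R 4.3.3) fitted 7 groups at once, with Benjamini-Hochberg adjustment, and was tested on simulated data. All members, lists, motifs and rules were chosen with earlier results of these data known. Named genes were the 10 largest differences in each direction past the threshold or, as none passed, with unadjusted p under 0.01, no overlap and a measured higher group; of each list the first gene and up to 4 with the smallest p; and 5 per direction for the difference between fractions. Other list genes given here were chosen after their values were seen. The 8353 genes known only by a clone or predicted identifier are in the counts over all genes, but were not named. They are not among the 49 and 58 genes from which the widest differences were named. Of 594 list genes, 4 were not measured. Some named genes and the targeted gene of the Cre line are not reported here. Alternatives covered background correction, scaling, filters, probes, slide, replicate numbers, the arrays in the fit, array weights and leaving out each array.

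Same-numbered arrays of both days (numbers 1 and 3) had deviations from their group means that correlated at 0.18 and 0.23. These were the highest among all pairs of a day 14 and a day 3 array, the others running from -0.21 to 0.10. With only 2 numbers this cannot settle whether the numbers mark pairs, and they were not taken as pairs in the main fit.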

Additional observations from a re-analysis of the deposited data

Results flagged for a closer look

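For 4 of the named genes every day 14 array lay on one side of the day 3 arrays in YFP-negative cells and on the other side in YFP-positive cells. These genes had been named for a small p of that very difference, and with adjusted p = 1 by limma none passed. Gdf9, an oocyte growth factor, was at -1.24, -1.14 and -0.33 in YFP-negative cells at day 14, against -2.19, -1.66 and -2.07 at day 3, and at -7.20 and -5.79 in YFP-positive cells at day 14, against -1.10, -1.50, -1.22 and 1.96 at day 3, a difference of 7.10 ± 1.51 between the fractions. Dzank1 differed by 2.77 in YFP-negative and by -3.995 in YFP-positive cells, 6.76 between the fractions. Ufsp1, a protease of the UFM1 pathway, differed by 1.57 in YFP-negative and by -1.31 in YFP-positive cells, 2.87 between the fractions. Il11 differed by -1.68 in YFP-negative and by 2.62 in YFP-positive cells, -4.30 between the fractions. The YFP-positive values at day 14 rest on 2 arrays.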

How the results depend on the processing

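The number of genes past the adjusted threshold between day 14 and day 3 was 0 in all alternatives by limma except with array weights (1 gene) and over leaving out each array (0 to 2 genes, 2 without array 2 of day 14). For the difference between the fractions it was 1 after normexp (Hdx, -4.95, adjusted p 0.0371) and 0 to 1 over leaving out each array (1 without array 2 of YFP-negative day 14 or array 4 of YFP-positive day 3). Genes with an unadjusted p under 0.05 numbered 4743 after normexp (178 higher), 1752 with only the 6 arrays, 2179 with array weights and 765 with the replicate block. Scaling moved the share of higher among them, 557 of 1021 with the array median and 482 of 930 with quantile normalization, against 412 of 984. So did leaving out array 2 of day 14, with 401 higher and 299 lower. For the difference between fractions they numbered 4462 after normexp, 492 with probes well above background on all arrays, 1219 with slide as a fixed block, 821 with the replicate block, and 619 to 1297 over leaving out each array (1297 without array 1 of YFP-positive day 14). The median of all genes was -0.59 after normexp, against -0.06. Why these counts moved was not tested. Of the 153 genes named by the rule, 136 kept their sign throughout; genes given beyond it were not run through the alternatives. The median of 14 of the 30 lists changed sign in at least 1 of 19 fits, and that of the 5 leukocyte and class II lists in none. After normexp, values turned to -0.28 for Pdc, -0.39 for Bnc1, -0.080 for Epb42 and -1.20 for Shh. With the array median they turned to 0.0074 for Mki67, 0.011 for Col1a1 and 0.026 for Notch1, and with the mean of probes to -0.23 for Ptch1. With slide as a fixed block they turned to 0.12 for Mki67 and -0.15 for Shh, and with array weights to 0.22 for Col1a1 and -0.0057 for Ccl2. Leaving out each array gave -0.13 to 2.14 for Epb42, -1.19 to 0.033 for Jag2, -1.27 to 0.027 for Hey2, -0.88 to 0.10 for Stab2, -1.25 to 0.17 for Lyve1, -1.04 to 0.17 for Dnase1l3, -0.33 to 2.02 for Krt19 and -1.62 to 0.29 for S100a8. It gave -0.87 to 0.32 for Mki67, -0.59 to 0.42 for Col1a1, -1.17 to 0.69 for Tgfb1, -0.10 to 0.84 for Ccl2 and -1.86 to 1.44 for Shh. Of the 73 leukocyte and class II genes, 10 had an unadjusted p under 0.05 with the replicate block and 45 with only the 6 arrays, against 22. Probes not above background on a day give only a bound there.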
